A study of Homo sapiens with 6 samples.

Results

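The proteasome genes of HCT116 cells, an established human colorectal cancer line, are described here as all protein-coding genes whose symbol starts with PSMA to PSMG followed by a digit. The rule finds 50 genes among the 58395 listed, and it uses no measured value. RNA-seq was performed on 6 libraries. In 3 biological replicates (shControl) the cells carry a lentiviral hairpin without a target, and in the other 3 (shSTBD1) a hairpin that targets STBD1, a starch-binding protein proposed as a receptor that brings glycogen to autophagy. All 6 come from the same line after selection with puromycin or G418, and the methods do not say which drug these cells received. The depletion rests on 1 hairpin, and the sources used here do not say whether replicates are separate transductions. Of the 50 genes, 47 pass the filter on low counts, and the others, PSMA8, PSMB8 and PSMB11, have at most 11 counts in any library. A further 51 genes with a matching symbol, which are pseudogenes, antisense or divergent transcripts, are not members.

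The proteasome is the protease that degrades most ubiquitin-tagged proteins. Its core particle is a barrel of alpha rings, which gate the entrance, and beta rings, which hold the cutting sites. The regulatory particle caps the barrel: its lid and non-ATPase subunits capture and deubiquitinate substrates, and its ring of ATPases unfolds them. Dedicated chaperones assemble both parts, and alternative activators can replace the cap. In cells exposed to interferon, the subunits PSMB8, PSMB9 and PSMB10 replace the catalytic subunits PSMB5, PSMB6 and PSMB7 to form the immunoproteasome. Dividing cells in general express the standard particle.

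The expected counts sum to between 17689097 and 21668274 per library, and the fitted biological coefficient of variation between replicates is 3.37%. STBD1 itself has 16.2, 15.7 and 14.4 CPM (counts scaled by library size and TMM factors) in the shControl libraries and 11.6, 9.07 and 9.16 in the shSTBD1 libraries. It is lower in all 3 shSTBD1 libraries, with a log2 fold change of -0.64 ± 0.10 (SE, edgeR quasi-likelihood test, adjusted p = 2.9e-04). The epithelial markers EPCAM, CDH1, KRT8, KRT18 and KRT19 are expressed in every library, CDX2 stays at 12.6 to 16.4 CPM, and VIL1 is at most 0.315 CPM. Of these, CDH1, KRT8, KRT18 and KRT19 are higher in shSTBD1 cells, by 0.20 to 0.29 on the log2 scale. The leukocyte markers PTPRC and CD3E have no counts, and of the 10 markers listed for leukocytes, fibroblasts and endothelium only COL1A1 exceeds 1 CPM, at 30.9 to 40.3.

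Promoter windows were searched for the members because many proteasome genes are known to share transcription factors. Each window runs from 250 bases before to 50 after the RefSeq start on GRCh38.p14, and 44 of the 50 members have one. PSMA7, PSMB1, PSMB6, PSMB7, PSMD4 and PSMG3 have none in the table. The following are shown for PSMB3, which holds 3 of the 4 motifs searched, for PSMA3 and PSMC4, and for PSMA4, whose values are described below. The last is PSMD2, the one member called lower in shSTBD1 cells at an adjusted p under 0.05 (edgeR). Capitals mark the letters of the searched motifs on either strand. The antioxidant response element was searched as TGACNNNGC. The CCAAT box was searched by the letters of its name. The ETS site, bound by factors of the ETS family, was searched as CCGGAAG. The E-box was searched as its palindromic form CACGTG. No member window holds 2 different motifs of these at overlapping bases.
PSMB3: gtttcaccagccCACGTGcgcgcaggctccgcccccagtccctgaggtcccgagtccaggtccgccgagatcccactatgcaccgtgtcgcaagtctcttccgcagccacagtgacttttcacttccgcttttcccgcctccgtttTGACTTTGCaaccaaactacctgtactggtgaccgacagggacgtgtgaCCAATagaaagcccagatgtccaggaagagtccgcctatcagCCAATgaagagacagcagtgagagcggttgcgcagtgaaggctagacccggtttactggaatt
PSMA3: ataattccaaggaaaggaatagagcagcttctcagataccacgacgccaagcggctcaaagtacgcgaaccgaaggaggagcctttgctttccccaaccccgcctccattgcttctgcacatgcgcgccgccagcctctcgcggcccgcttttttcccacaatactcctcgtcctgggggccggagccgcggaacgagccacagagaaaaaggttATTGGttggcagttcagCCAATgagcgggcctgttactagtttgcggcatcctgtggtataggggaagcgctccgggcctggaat
PSMC4: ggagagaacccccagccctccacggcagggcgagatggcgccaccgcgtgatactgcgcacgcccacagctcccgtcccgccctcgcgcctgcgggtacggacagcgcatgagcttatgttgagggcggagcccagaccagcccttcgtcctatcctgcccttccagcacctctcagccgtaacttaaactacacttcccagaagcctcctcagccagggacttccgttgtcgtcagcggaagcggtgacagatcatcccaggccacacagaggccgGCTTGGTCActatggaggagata
PSMA4: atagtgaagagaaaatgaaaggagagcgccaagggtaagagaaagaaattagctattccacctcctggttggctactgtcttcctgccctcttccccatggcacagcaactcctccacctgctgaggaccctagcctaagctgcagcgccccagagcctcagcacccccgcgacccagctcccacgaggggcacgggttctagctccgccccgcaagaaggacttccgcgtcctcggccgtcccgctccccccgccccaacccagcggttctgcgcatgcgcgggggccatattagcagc
PSMD2: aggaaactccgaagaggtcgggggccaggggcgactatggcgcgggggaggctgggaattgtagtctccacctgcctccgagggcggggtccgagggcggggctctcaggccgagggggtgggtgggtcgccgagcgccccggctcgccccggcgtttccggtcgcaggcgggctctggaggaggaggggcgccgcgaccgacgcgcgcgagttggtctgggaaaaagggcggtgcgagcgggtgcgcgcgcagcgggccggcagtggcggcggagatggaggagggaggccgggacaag
The windows are, in this order, at chr17:38752491-38752790, chr14:58244593-58244892, chr19:39970915-39971214, chr15:78540155-78540454 and chr3:184298991-184299290, all on the + strand. PSMA4 and PSMD2 hold none of the 4 letter patterns in this window. Over the 44 windows, TGACNNNGC is present in 13, or 29.5%, against 14.3% of all 15843 promoters in the table. Of these 13, 1 is among the 11 core particle windows and 4 are among the 16 regulatory particle windows. The rest belong to PSMB9, to chaperones and to activators. CCGGAAG is present in 14, or 31.8%, against 14.2%, and 9 of these are among the 16 regulatory particle windows while 1 is among the 11 core particle windows. That 1 is PSMA8, which did not pass the filter on low counts. The core genes PSMA7, PSMB1, PSMB6 and PSMB7 and the regulatory gene PSMD4 have no window, and the difference was not tested. CCAAT is present in 21, or 47.7%, against 36.4%, and CACGTG in 4, or 9.09%, against 8.88%. A match is a description of letters, not a bound site.

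The subunits of the standard particle are all expressed, and the immunoproteasome is low. TPM values, an abundance that is divided by transcript length and scaled to a common total per library, range within the alpha ring from 96.5 for PSMA5 to 476 for PSMA4 as shControl means. In the beta rings they range from 106 for PSMB2 to 394 for PSMB3, and among the ATPases from 87.2 for PSMC6 to 315 for PSMC1. In the lid, PSMD6 is at 94.0 and PSMD8 at 217, while PSMD2, the scaffold subunit of the base, is at 375. The chaperones PSMG1 to PSMG4 are at 108, 66.0, 83.1 and 21.8. PSMB10 is at 49.4 TPM, PSMB9 at 9.78 and PSMB8 at 0.41, against 270 for PSMB7, 255 for PSMB6 and 212 for PSMB5, their counterparts. The thymus subunit PSMB11 and the testis subunit PSMA8 have at most 1 count in any library, under the 3 counts that 0 allows.

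**Figure D1:**
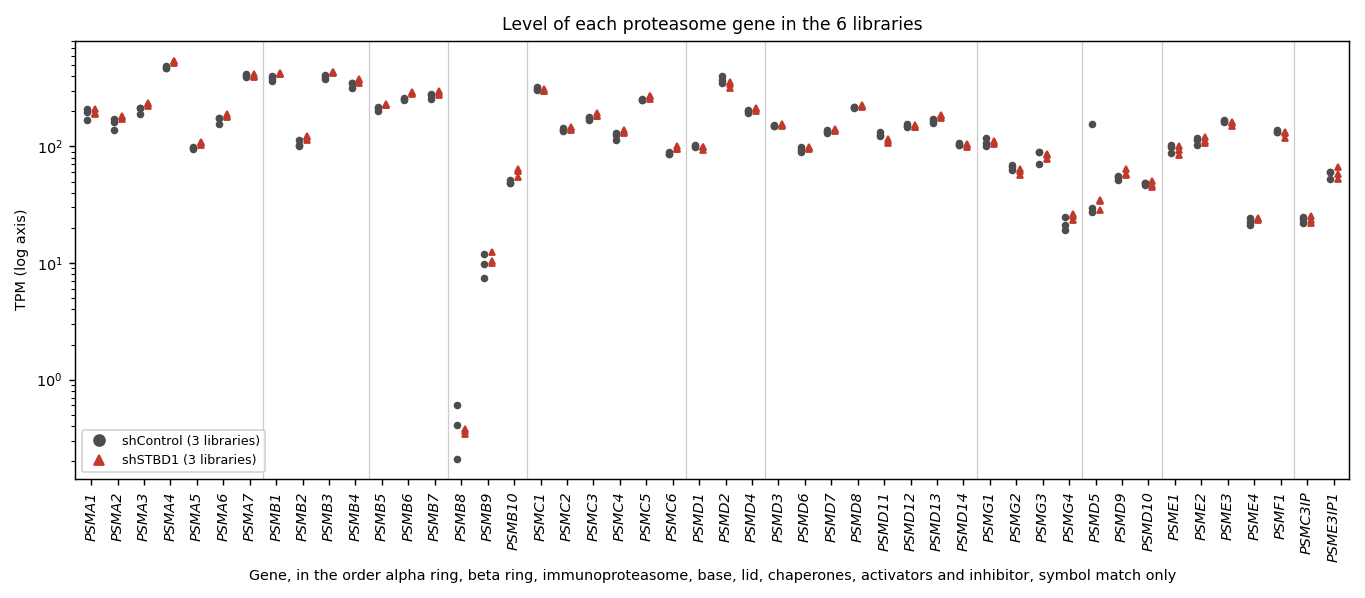
TPM on a log axis for every member above 0 in all 6 libraries, ordered by role, with shControl libraries as circles and shSTBD1 libraries as triangles. PSMB8 at under 1 TPM and PSMB9 at about 10 TPM stand below the other subunits, and PSMD5 has 1 high shControl library.

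Of the 47 tested members, 16 are higher in shSTBD1 cells and 1 is lower at an adjusted p under 0.05, against 8.22% higher and 7.54% lower of the 15566 genes tested. The 16 make 34.0% of the members. By the edgeR quasi-likelihood test, 0 of the 47 have an unadjusted p under 1e-5, against 2.38% of all genes. An unadjusted p under 0.05 is found for 21 of the 47 and for 4677 of all 15566 genes. The study's methods apply the limit of 1e-5 to DESeq2, with which 1 member, PSMA4, passes it. The log2 fold change is above 0 for 36 members and below 0 for 11, whereas 50.7% of all genes are above 0. The 3 libraries of each group do not overlap for 25 members, or 53.2%, against 33.6% of all genes. The changes are small: the median is 0.07 on the log2 scale for the members and 0.00226 for all genes, and the members' changes run from -0.11 to 0.29. Together the members take 0.658% to 0.674% of the counts in the shControl libraries and 0.699% to 0.704% in the shSTBD1 libraries, so that the groups do not overlap. These are shares of RNA: in bulk samples, more RNA per cell and more cells with that RNA cannot be told apart.

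The members are short, with a median effective length (the length from which a fragment can start) of 922 bases against 1986 for all genes, and shorter members have higher log2 fold changes, with a Spearman correlation of -0.35 across the 47 members and -0.17 across all genes. These genes share their libraries, so the coefficients are descriptions. With offsets fitted to gene length in each library, 8 members pass, 6 higher and 2 lower. With offsets from effective length 2 pass, PSMA4 and PSMB6. With limma on log2(TPM + 1) or log2(TPM + 0.1), none passes, and 15 have an unadjusted p under 0.05. Calls over all genes also change with the setting. They number 2453 in the main fit, 2420 with gene-length offsets, 511 with effective-length offsets, and 292 and 290 in the limma fits. The part of length in the result was not tested. Without shSTBD1 replicate 1 or without replicate 2, 7 members pass in each case, beside 1570 and 1409 of all genes. PSMA3, PSMA4, PSMB1, PSMB3 and PSMB6 pass with any 1 library left out. All 17 keep their sign in the 20 alternatives.

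**Figure D2:**
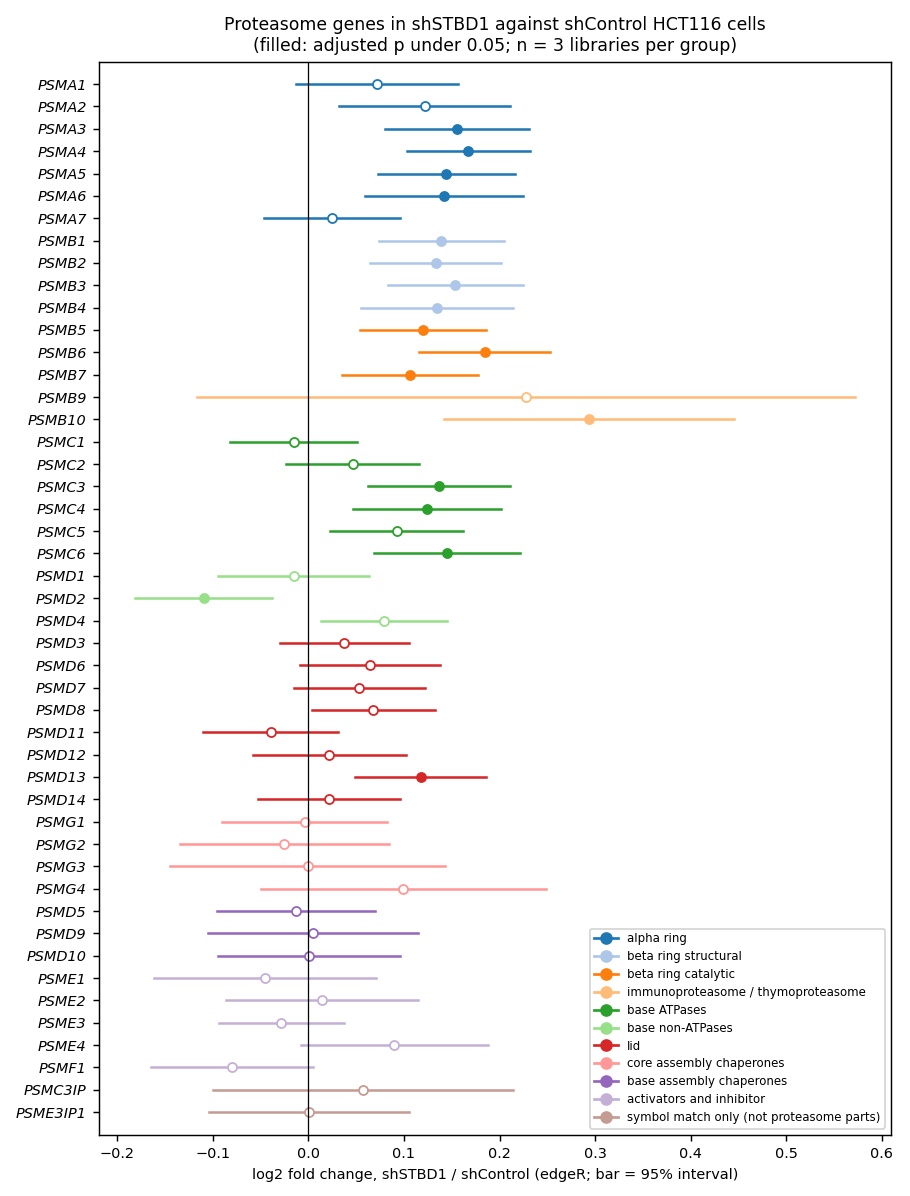
Log2 fold change of shSTBD1 over shControl for the 47 tested members, with 95% intervals and filled points at an adjusted p under 0.05, coloured by role. The core particle subunits lie right of 0, and PSMD2 is the one filled point left of 0.

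Most genes of the core particle are called higher in shSTBD1 cells in the main fit. Its 14 tested genes all have a log2 fold change above 0, from 0.02 to 0.18 with a median of 0.14, and 11 of them are higher: PSMA3, PSMA4, PSMA5, PSMA6 and PSMB1 to PSMB7. Of all genes, 50.7% are above 0 and 8.22% are called higher. The median effective length of the 14 is 701 bases. With gene-length offsets, the median is 0.08, 13 are above 0 and 4 pass, namely PSMA4, PSMA5, PSMB2 and PSMB6. With effective-length offsets 2 pass, and in both limma fits on TPM 0 pass. Summed over the core particle, TPM is 3478, 3788 and 3725 in the shControl libraries and 4041, 3957 and 3931 in the shSTBD1 libraries, which is 8.53% higher in the mean, without overlap. Without shSTBD1 replicate 1 or 2, 6 of the 14 are called in each case.

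PSMB6, the catalytic subunit that cuts after acidic residues (chr17:4796144-4798502, + strand, GRCh38), leads the members by p. It is at 129, 128 and 125 CPM in the shControl libraries and at 145, 147 and 143 in the shSTBD1 libraries. The groups are apart, and the log2 fold change is 0.18 ± 0.03 (SE, edgeR, adjusted p = 9.9e-04). Over its 20 alternatives the adjusted p runs from 3.6e-05 to 0.067, and it is 0.029 with gene-length offsets. The other catalytic subunits are called as well. PSMB5, which cuts after hydrophobic residues, is higher by 0.12 ± 0.03 (adjusted p = 0.015), and PSMB7, which cuts after basic residues, by 0.11 ± 0.03 (adjusted p = 0.041). The call for PSMB7 is lost in 10 of 20 alternatives.

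PSMA4, an alpha ring subunit (chr15:78540405-78552417, + strand), is at 243, 245 and 240 CPM in shControl cells and at 274, 268 and 276 in shSTBD1 cells. All shSTBD1 libraries are above all shControl libraries, with a log2 fold change of 0.17 ± 0.03 (adjusted p = 0.0012). Of the other alpha subunits, PSMA3 is at 111, 114 and 119 CPM in shControl and 127, 125 and 129.7 CPM in shSTBD1 cells (log2 fold change 0.16 ± 0.04, adjusted p = 0.0071). PSMA5 is at 114, 119 and 119 CPM in shControl and 127, 131 and 129.9 CPM in shSTBD1 cells (log2 fold change 0.14 ± 0.03, adjusted p = 0.0078). PSMA6 is at 103, 111 and 112 CPM in shControl and 124, 119.8 and 117 CPM in shSTBD1 cells (log2 fold change 0.14 ± 0.04, adjusted p = 0.021). The groups are apart for each of these genes. PSMA2 has a change of 0.12 (adjusted p = 0.061) with separate groups. PSMA7, the shControl mean of which is 406 TPM, has a change of 0.02 with a 95% interval from -0.05 to 0.10, and it does not separate the groups. The structural beta subunits PSMB1, PSMB2, PSMB3 and PSMB4, which carry no cutting site, are all higher. PSMB1 is at 219, 229 and 225 CPM in shControl and 249.5, 247 and 246 CPM in shSTBD1 cells (log2 fold change 0.14 ± 0.03, adjusted p = 0.0056). PSMB3 is at 160.1, 157 and 168 CPM in shControl and 181, 179.9 and 179 CPM in shSTBD1 cells (log2 fold change 0.15 ± 0.03, adjusted p = 0.0049). Both are separate between groups, with the closer spacing among the shSTBD1 libraries. PSMB2 is at 213, 216 and 209 CPM in shControl and 241, 229 and 231 CPM in shSTBD1 cells (log2 fold change 0.13 ± 0.03, adjusted p = 0.01). PSMB4 is at 197, 207 and 212 CPM in shControl and 221, 235 and 217 CPM in shSTBD1 cells (log2 fold change 0.13 ± 0.04, adjusted p = 0.023), and its groups are also apart, PSMB4 by a smaller gap than PSMB2. With gene-length offsets PSMB2, whose effective length is 2258 bases, stays called at 0.14, and PSMB3, whose effective length is 468 bases, is at 0.07 (adjusted p = 0.15).

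PSMA3 lies opposite to the lncRNA PSMA3-AS1, whose mean count is 16.7% of that of PSMA3. PSMA3-AS1 is lower in shSTBD1 cells, with a log2 fold change of -0.29 (adjusted p = 0.0077), while PSMA3 is higher. The strand of counting is not given in the sources used here, so reads in the overlap cannot be assigned to either with certainty.

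Among the immunoproteasome subunits, PSMB10 shows the largest change of the 47. It is at 15.3, 15.3 and 14.6 CPM in shControl cells and at 17.5, 19.6 and 18.5 in shSTBD1 cells. The groups do not overlap, and the log2 fold change is 0.29 ± 0.07 (adjusted p = 0.011). With gene-length offsets it is 0.20 (adjusted p = 0.064). PSMB10 (chr16:67934506-67936864, - strand) overlaps a protein-coding gene on the same strand, ENSG00000261884, whose mean count is 64.4% of its own. PSMB9, at 4.52, 4.84 and 3.28 CPM against 4.43, 5.61 and 4.79, has overlapping groups and a change of 0.23 ± 0.16 (adjusted p = 0.38). PSMB9 lies opposite to TAP1, whose mean count is 1242% of its own. PSMB8 has 4 to 11 counts per library and was not tested. Of the summed TPM of each pair, PSMB10 takes 15.5% ± 0.71 in shControl and 17.4% ± 1.52 in shSTBD1 cells (SD, n = 3) beside PSMB7, and PSMB9 takes 3.68% in both beside PSMB6. The PSMB10 shares overlap between groups, at 16.0%, 15.7% and 14.7% against 15.6%, 18.3% and 18.3%.

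In the regulatory particle the values are mixed. Of 17 genes with a matching symbol, 13 are above 0, and PSMC3, PSMC4, PSMC6 and PSMD13 are higher while PSMD2 is lower. The higher genes make 23.5%, against 8.22% of all genes, and 1 lower gene is near the share of all genes, 7.54%. Of all genes, 50.7% are above 0. ADRM1 and SEM1, listed with other proteasome parts and partners, do not match the symbol rule and are in none of these counts or sums. Their log2 fold changes are 0.08 and 0.07 (edgeR, adjusted p = 0.098 and 0.48). The median change is 0.05, and its summed TPM differs by 0.535%, from 2910 ± 21.8 to 2926 ± 35.1 (SD, n = 3). With gene-length offsets the median is 0.02, and PSMC6 is the 1 gene higher and PSMD2 the 1 lower. With effective-length offsets and in both limma fits on TPM, 0 are called. Whether the core and the regulatory particle differ was not tested. PSMC3, an ATPase of the base, is at 185, 171 and 177 CPM against 200, 192 and 194, with separate groups, and is higher by 0.14 ± 0.04 (adjusted p = 0.014). PSMC6, also an ATPase, is at 86.1, 85.1 and 88.0 CPM in shControl and 97.6, 95.7 and 93.3 CPM in shSTBD1 cells (log2 fold change 0.15 ± 0.04, adjusted p = 0.012). PSMC4, a further ATPase, is at 132, 138 and 145 CPM in shControl and 149, 151 and 153 CPM in shSTBD1 cells (log2 fold change 0.12 ± 0.04, adjusted p = 0.029). Neither overlaps between groups, and the call for PSMC4 is lost in 9 of 20 alternatives, among them DESeq2 (adjusted p = 0.050). PSMC1, another, has -0.02 with a 95% interval from -0.08 to 0.05. PSMD13, a lid subunit, is at 183, 176 and 184 CPM in shControl and 197, 199.9 and 192 CPM in shSTBD1 cells and separate between groups (log2 fold change 0.12 ± 0.03, adjusted p = 0.021). The number called higher is 1 without shControl replicate 2 or without shSTBD1 replicate 2 and 0 without shSTBD1 replicate 1.

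PSMD2, a large scaffold subunit of the base that docks substrates and shuttle factors (chr3:184299198-184309050, + strand), is at 595, 547 and 566 CPM in shControl cells and at 527, 533 and 523 in shSTBD1 cells. Each shSTBD1 library is below each shControl library, and the log2 fold change is -0.11 ± 0.03 (adjusted p = 0.037). It is -0.12 with gene-length offsets (adjusted p = 0.025), and the adjusted p runs from 0.010 to 0.29 over 20 alternatives. The call is lost without shControl replicate 3 and without any 1 of the 3 shSTBD1 libraries. PSMD1, the other large scaffold subunit, is at 231 to 254 CPM against 233 to 243, with overlapping groups. PSMD4, a ubiquitin receptor, is at 181, 180 and 183 against 193, 194 and 187 CPM, without overlap (0.08 ± 0.03, adjusted p = 0.095).

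Other regulatory particle genes are separate between groups without passing the test. PSMC5, an ATPase, is at 267, 257 and 249.7 CPM in shControl and 277, 278 and 270.3 CPM in shSTBD1 cells (log2 fold change 0.09 ± 0.03, adjusted p = 0.069). PSMC2, another ATPase, is at 104, 104 and 105 CPM in shControl and 108, 108 and 108 CPM in shSTBD1 cells (log2 fold change 0.05 ± 0.03, adjusted p = 0.38). Both are higher in each shSTBD1 library, but both lie over other genes: FTSJ3 on the opposite strand has a mean count that is 63.6% of that of PSMC5, and PMPCB and DNAJC2 have 55.9% and 60.4% of that of PSMC2. In the lid, PSMD8 is at 163, 161 and 162 CPM in shControl and 170.4, 169 and 171 CPM in shSTBD1 cells (log2 fold change 0.07 ± 0.03, adjusted p = 0.15), and PSMD6 and PSMD7 are separate with changes of 0.06 and 0.05. The lid subunits PSMD3, PSMD12 and PSMD14, the last of which is the deubiquitinase of the particle, have overlapping groups.

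The effective length is called for 0 members and for 0% of the 15566 genes. An unadjusted p under 0.05 (limma) is found for 4 of the 47 members and for 949 of all 15566 genes. Among these 4 members, PSMD11, a lid subunit, has the largest difference. Its effective length is 0.13 longer on the log2 scale in shSTBD1 cells (limma, unadjusted p = 0.017, adjusted p = 0.70). The mean goes from 1799 to 1963 bases. Its TPM is 133, 122 and 125 in shControl and 116, 111 and 107 in shSTBD1 cells. These TPM values do not overlap, whereas its CPM values, 195 to 207 against 191 to 196, do.

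The assembly chaperones with a matching symbol are PSMG1 to PSMG4, which build the alpha ring, and PSMD5, PSMD9 and PSMD10, which build the base. Of these 7, 0 are called (edgeR), where 8.22% of all genes are called higher and 7.54% lower, and a count this small is near those shares. The chaperone POMP does not match the symbol rule, and it is called higher (0.20, edgeR, adjusted p = 0.0012). The log2 fold changes of the 7 run from -0.03 to 0.10, the highest being that of PSMG4. PSMG4 has separate groups (adjusted p = 0.37). PSMD5 has 71.7, 73.1 and 74.3 CPM in shControl cells and 73.3, 73.7 and 70.0 in shSTBD1 cells, so that its counts overlap. Its TPM is 156 in shControl replicate 3 and 27.5 to 34.5 in the other 5 libraries, where its effective length is 2383 to 2905 bases instead of 546. The summed TPM of the base chaperones is 255 in that library and 131 to 142 in the others.

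**Figure D3:**
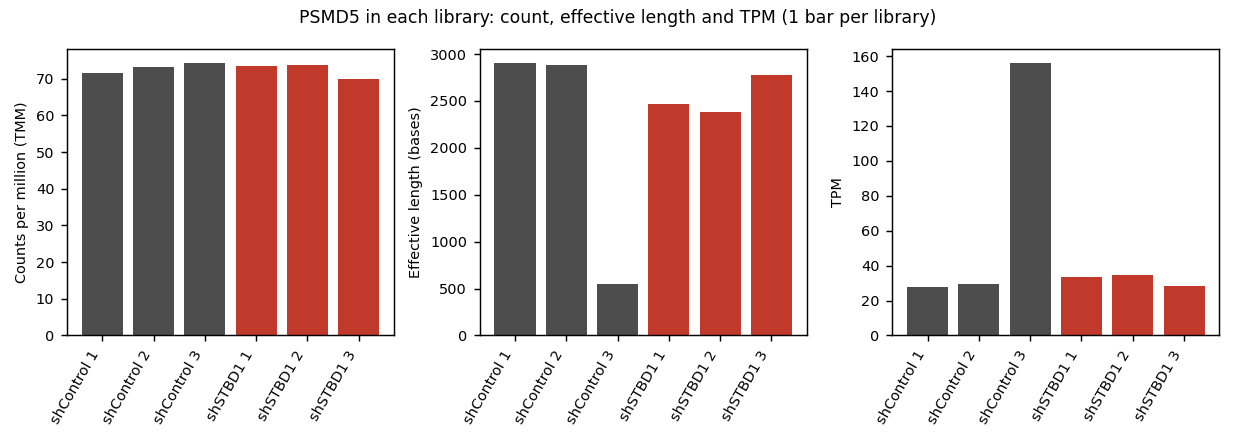
PSMD5 in each of the 6 libraries as CPM, effective length in bases and TPM, 1 bar per library. CPM is between 70.0 and 74.3 throughout, while shControl 3 has an effective length of 546 bases and 156 TPM.

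None of the alternative activators and the inhibitor, 5 genes, passes either. Of all genes, 8.22% are called higher and 7.54% lower, and a count this small is near those shares. The groups do not overlap for 33.6% of all genes. PSME1 and PSME2, the interferon-inducible activator, PSME3, its nuclear relative, PSME4, an activator that acts on histones, and the inhibitor PSMF1 have changes from -0.08 to 0.09, and no pair of groups is separate. With gene-length offsets PSME4, whose effective length is 6235 bases, is called at 0.13 (adjusted p = 0.030), and PSMF1 at -0.13 (adjusted p = 0.047). PSMC3IP, a meiotic recombination factor, and PSME3IP1, which binds PSME3, match the symbol rule without being proteasome parts and are not called.

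**Figure D4:**
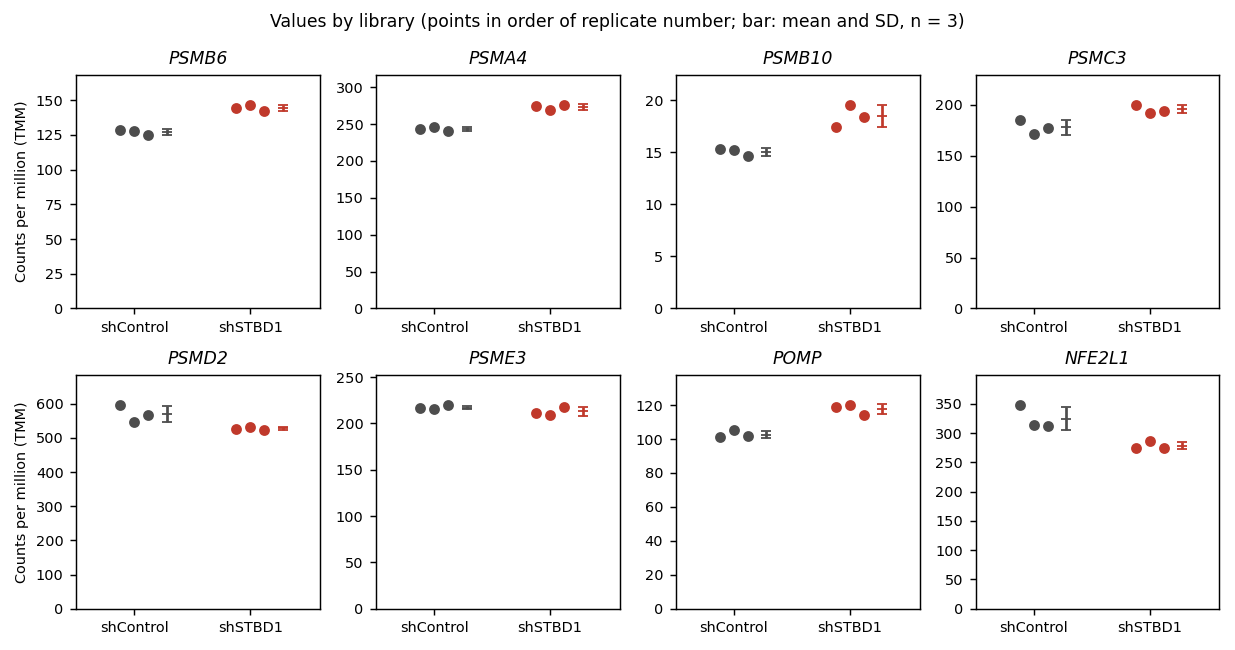
CPM of 6 members and of POMP and NFE2L1 in each library, with points in the order of replicate number and the mean ± SD (n = 3) beside them. The groups are separate in all panels other than that of PSME3. Among the separate panels, PSMD2 and NFE2L1 are those with lower shSTBD1 values.

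Of 35 listed genes that work with the proteasome, 6, or 17.1%, are called higher, against 8.22% of all genes. The 2 called lower are near the share of all genes called lower, 7.54%. With effective-length offsets and in both limma fits on TPM, 0 of the 35 are called, with 7, 6 and 6 at an unadjusted p under 0.05. In those fits 511, 292 and 290 of all 15566 genes are called. POMP, the chaperone that joins the beta subunits, is at 101, 105 and 102 CPM in shControl and 119, 120 and 114 in shSTBD1 cells, higher by 0.20 ± 0.04 (adjusted p = 0.0012). NFE2L1, the transcription factor that raises proteasome genes when proteasome activity falls, is at 347, 315 and 312 against 275, 286 and 274 CPM. It has a log2 fold change of -0.22 (SE 0.04, adjusted p = 0.0012), with every shSTBD1 library below every shControl library. NGLY1, which removes the sugars of that factor, is higher by 0.26 ± 0.05 (adjusted p = 0.0020), and DDI2, its protease, and SYVN1, its ubiquitin ligase, are not called. RPS27A, which encodes ubiquitin fused to a ribosomal protein, is higher by 0.15, while UBB, a ubiquitin gene, is not called. Beside the immunoproteasome, the peptide transporter subunit TAP2 is higher by 0.20, NLRC5, a transactivator of MHC class I genes, by 0.33, and TAPBP, the peptide-loading factor tapasin, is lower (adjusted p = 0.022). None of 8 shuttle and unfolding factors, VCP among them, is called, and 0 of these 35 genes has a called effective length.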

How the data were processed

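RNA-seq libraries of shControl and shSTBD1 HCT116 cells were compared, 3 per group by their labels. Low-quality, adapter-containing and poly-N reads were removed by the authors, who mapped what remained with STAR 2.7.1a (Hg38) and estimated genes with RSEM 1.3.1. The deposited expected counts are not normalised, and 19.9% to 20.4% of values above 0 are not whole. The deposited TPM values are scaled to a common total and depend on the deposited effective length, another quantity in bases. The posterior standard deviation of the counts, another deposited column, is above 1% of the count for 2 members.

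Expected counts were rounded, filtered with filterByExpr, scaled by TMM and tested with edgeR 4.0.16 (quasi-likelihood, Benjamini-Hochberg over 15566 genes), in R 4.3.3. Log2 effective length was tested with limma 3.58.1. Alternatives include DESeq2 1.42.0, other factors, offsets, a lowess span of 0.3, a count minimum of 10 and each library left out. The fits were tested on simulated data. The simulated fold changes were larger than those of the members, so fold changes this small were not covered. Genes are named by smallest p, catalytic role, extremes of each role list, separate groups or a call. Members and lists were chosen with earlier results of these data known. Symbols and positions come from the GENCODE annotation of GRCh38. Intervals cover counting error and replicate spread only. Re-expression RNA-seq, metabolomics and patient data were not analysed here. The values of some listed partner genes are not reported here.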

Additional observations from a re-analysis of the deposited data

How the results depend on the processing

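Of 47 tested members, 33 keep their sign in all 20 alternatives, and all 17 called members do. The number called (17: 16 higher, 1 lower) is 2 (2 higher, 0 lower) with effective-length offsets, 8 (6 and 2) with gene-length offsets, 10 (8 and 2) with a replicate block and gene-length offsets, and 0 in both limma fits, where 15 have an unadjusted p under 0.05. Of the 17, 6 stay called with gene-length offsets. Over all genes, 2453 are called in the main fit. That number is 511 with effective-length offsets, 2420 with gene-length offsets, 2545 with the block added, and 292 and 290 in the limma fits. Leaving out 1 library gives 7 to 19 members called, 7 to 18 higher and 0 to 2 lower, and 1409 to 2577 calls over all genes. For the core particle (11) the counts are 2, 4, 4 and 0 in that order of settings, and 6 to 11 with 1 library left out. For the regulatory particle (4 higher, 1 lower) they are 0 and 0, 1 and 1, 3 and 1, and 0 and 0 in the same order. With 1 library left out they are 0 to 5 higher and 0 to 1 lower. The number at an unadjusted p under 1e-5 (0) is 1 with DESeq2, 2 without a filter, and 0 to 3 with 1 library left out. The 8 called partner genes become 0 with effective-length offsets and in both limma fits. STBD1 has -0.54 (adjusted p = 0.065) with log2(TPM + 1) and -0.65 (adjusted p = 0.067) with log2(TPM + 0.1).

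Same-numbered libraries have correlations of 0.071, 0.068 and -0.0084, and those with unlike numbers run from -0.074 to 0.010. All are near 0, and whether the replicate numbers mark a pairing was not tested. With a replicate block, 18 members are called, PSMA2 among them. In all, 14 tested members turn sign in at least 1 alternative, and values follow for those named by the rule. PSMD5 moves from -0.01 to -0.96 (adjusted p = 0.40) with effective-length offsets. With gene-length offsets, PSMA7 is -0.035, PSMC2 -0.0048, PSMD9 -0.0513 and PSME3IP1 -0.0469, with the replicate block added -0.0351, -0.0045, -0.0512 and -0.0454. PSME3IP1 is -0.0022 with RLE, -0.0025 with upper-quartile factors, -0.0026 with DESeq2 and -0.00043 at the count minimum. With 1 library left out, PSMA7 runs from -0.0022 to 0.0503, PSMD9 from -0.0340 to 0.0249, PSMC3IP from -0.0016 to 0.0937, PSMD5 from -0.0279 to 0.010 and PSME3IP1 from -0.0421 to 0.0353. The cause was not tested.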

Other observations

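Of the 51 other genes with a matching symbol, 4 pass the filter on low counts, and of these PSMA3-AS1 alone passes the adjusted threshold (edgeR quasi-likelihood test). PSMC1P1, a pseudogene of PSMC1, is at 4.74 CPM in shControl and 5.44 CPM in shSTBD1 cells (adjusted p = 0.44). PSMG3-AS1 is at 2.81 and 2.05 CPM (adjusted p = 0.15), and PSMD6-AS2 at 1.43 and 1.63 CPM (adjusted p = 0.65).

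Members differ in which library holds their extreme value. Of the 47 tested members, 18 are lowest in shControl replicate 1 and 8 are highest there. In the shSTBD1 libraries, 11 members are highest in each of replicates 1, 2 and 3. The total of that shControl library is 19697127 expected counts, within the range of the others.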
